A study of Mus musculus with 384 samples.

Results

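EpiSCs of the line AF32 were ranked by the summed expression of 5 genes that mark the primitive streak, namely T, Eomes, Mixl1, Foxa2 and Gsc. Of the 96 AF32 cells in the count table, 80 had at least 3000000 counts, and the 20 of these with the highest sum were set against the remaining 60. These 20 cells, selected on the measured CPM of the 5 genes, are called the high-sum cells here, and the 5 genes were left out of their comparison with the other cells. They were drawn from a series of 384 cells, of which 326 passed the same depth threshold.

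EpiSCs are pluripotent stem cells of the primed phase. The study describes them as converging on a mid-gastrula phenotype, generally related to epiblast of the anterior primitive streak. AF32 was maintained in AF medium, which holds activin and Fgf2 without the tankyrase inhibitor XAV939. AFX6, another EpiSC line, was grown in AFX, which is AF with XAV939, and the formative stem (FS) cell lines 5ar1 and 5ar2 were grown in AloXR (written A3XR in the labels), which holds activin, XAV939 and the retinoic acid receptor inverse agonist BMS493. By the methods of the study, AloXR has a lower dose of activin than AF and AFX, and no added Fgf2. Single cells were sorted into plates and copied with Smart-seq2, and each line is 1 culture, so the cells are not replicates of a condition, and differences between groups of cells are given as values without a test.

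The primitive streak is the site where epiblast cells leave the epithelium at gastrulation and become mesoderm and definitive endoderm. T (Brachyury) and Eomes are T-box transcription factors, and Mixl1 is a homeobox factor of the streak. Foxa2, a forkhead factor, and Gsc, the homeobox factor goosecoid, mark its anterior part, from which endoderm, node and axial mesoderm arise. Nodal and canonical Wnt signals induce the streak in the embryo, and XAV939 lowers canonical Wnt signalling by stabilising Axin.

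The 250 bases before the annotated start are shown for the 4 genes that made the largest contribution in at least 1 of the 20 cells, because these genes were high in different cells. The sequences are from RefSeq on GRCm38.p6 and read 5′ to 3′ along the strand of the gene. Capitals mark matches, on either strand, to the Tcf/Lef letters CTTTGAA or CTTTGAT, which are bound by the effectors of Wnt signalling, or to the T-box letters AGGTGT. For Foxa2, the first of 3 listed starts is shown.
T, chr17:8434173-8434422, plus strand: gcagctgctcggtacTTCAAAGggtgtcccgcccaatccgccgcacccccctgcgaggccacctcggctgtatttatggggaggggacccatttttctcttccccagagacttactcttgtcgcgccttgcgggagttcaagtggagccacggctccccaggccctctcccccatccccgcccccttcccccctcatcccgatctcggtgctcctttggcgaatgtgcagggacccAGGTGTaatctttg
Eomes, chr9:118477939-118478188, plus strand: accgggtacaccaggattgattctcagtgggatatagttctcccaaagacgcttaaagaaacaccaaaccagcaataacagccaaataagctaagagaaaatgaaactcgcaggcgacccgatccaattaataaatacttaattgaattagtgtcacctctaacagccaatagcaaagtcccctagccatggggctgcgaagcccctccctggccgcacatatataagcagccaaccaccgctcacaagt
Foxa2, chr2:148046970-148047219, minus strand: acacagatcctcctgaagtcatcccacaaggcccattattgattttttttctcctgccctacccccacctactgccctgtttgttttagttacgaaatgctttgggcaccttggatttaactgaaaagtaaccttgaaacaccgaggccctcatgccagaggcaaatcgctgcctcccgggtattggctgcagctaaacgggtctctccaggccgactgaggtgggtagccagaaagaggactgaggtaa
Gsc, chr12:104473237-104473486, minus strand: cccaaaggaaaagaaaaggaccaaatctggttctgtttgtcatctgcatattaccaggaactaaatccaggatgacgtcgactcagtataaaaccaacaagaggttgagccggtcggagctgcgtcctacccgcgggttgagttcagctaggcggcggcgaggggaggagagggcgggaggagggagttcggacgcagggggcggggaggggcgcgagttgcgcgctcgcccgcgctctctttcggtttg

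The window before T held 1 Tcf/Lef match, 235 bases before the start, and 1 T-box match, 14 bases before it. The windows before Eomes, Foxa2 and Gsc held neither string of letters. Among all 32851 listed windows of this length, 7.48% held a Tcf/Lef match and 11.8% a T-box match. A match describes letters and is no evidence of binding.

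The sum of the 5 genes chose the high-sum cells and is described here without a test. CPM are counts per 1000000 counts of a cell. The sum had a median of 59.0 CPM in the high-sum cells and of 0.182 CPM in the other 60, of which 29 had no count of any of the 5 genes. The last cell inside the group, cell 12, had 14.4 CPM, and the first outside it, cell 63, had 9.32 CPM. The highest was cell 70 with 2395 CPM, 15.8 times the next cell (cell 83, 152 CPM) and 66.7% of the summed score of all 20 cells.

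The sum of each cell came mostly from a single gene. Foxa2 made the largest contribution in 10 cells, whose sums ran from 14.4 to 152 CPM, Eomes in 7 cells (17.0 to 124 CPM), Gsc in 2 cells (31.2 and 29.3 CPM) and T in cell 70 alone. Mixl1 led in 0 cells. The leading gene held more than 90% of the sum in 15 of the 20 cells and at least 62.6% in each.

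Foxa2 was highest in cell 83, at 123 CPM, followed by cell 47 with 106 CPM, cell 66 with 79.5 CPM and cell 44 with 78.5 CPM. Eomes was highest in cell 65, at 118 CPM, followed by cell 54 with 104 CPM, cell 73 with 69.3 CPM and cell 9 with 58.6 CPM. Gsc reached 42.9 CPM in cell 47, 31.2 CPM in cell 62 and 28.9 CPM in cell 41. T stood at 2369 CPM in cell 70 and 19.4 CPM in cell 54, and cell 70 held 99.2% of the T signal of the group. Mixl1 exceeded 10 CPM only in cell 83, at 28.7 CPM. The heat map of the 5 genes shows that the bright squares of T, Eomes, Foxa2 and Gsc fell mostly in separate columns.

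**Figure D1:**
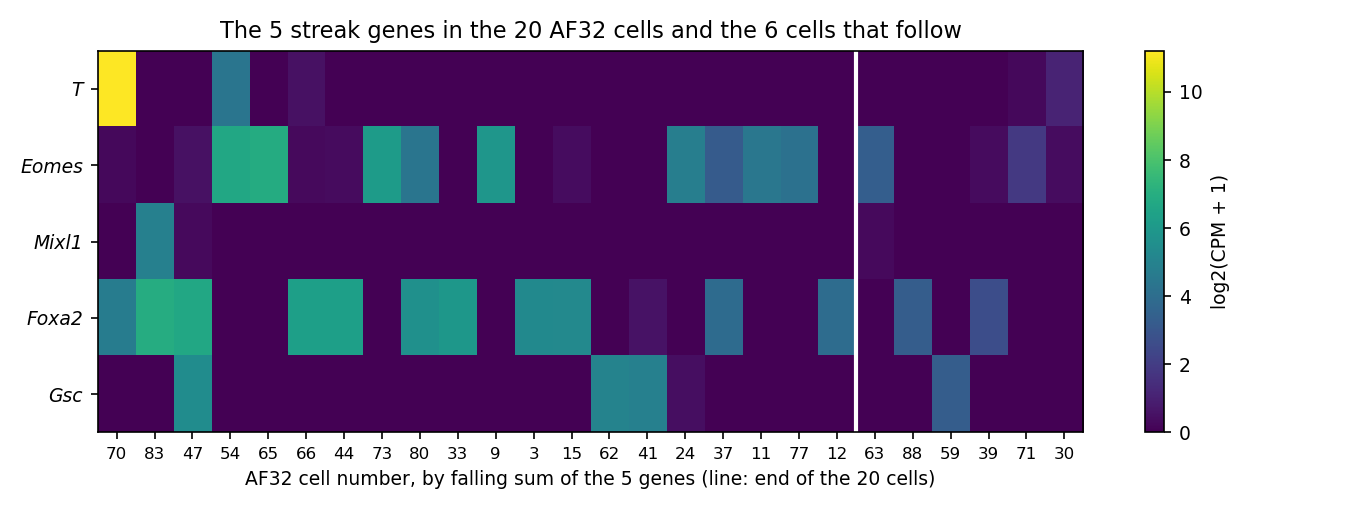
Expression of the 5 streak genes, as log2(CPM + 1) by colour, in the 20 high-sum AF32 cells and the 6 cells that follow them, ordered from left to right by falling sum. Most of the 20 columns hold 1 bright square, and T is high in cell 70, at 2369 CPM.

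The cells of the group were then described by co-detection, from the same values that chose them. At 10 CPM or more of a gene, 15 of the 20 cells had 1 of the 5 genes, 5 had a pair and 0 had 3 or more. No cell outside the group could reach this level, because the highest sum there was 9.32 CPM. The pairs were T with Eomes in cell 54, T with Foxa2 in cell 70, Eomes with Foxa2 in cell 80, Mixl1 with Foxa2 in cell 83, and Foxa2 with Gsc in cell 47. At 1 CPM or more, 6 cells had a pair and again 0 had 3 or more. Over the 80 cells, Spearman's rho between pairs of the 5 genes lay between −0.13 and 0.25, as a description of sparse values in cells of 1 culture. Loss of transcripts before sequencing was not measured and could also lower co-detection. Since 15 of the 20 cells had only 1 of the 5 genes at 10 CPM, the group is called by its rule.

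Of 27 listed genes of the streak and nascent mesoderm, 8 were measured, meaning at least 10 CPM in either group and a count in at least 25% of its cells. Mesp1 and Mesp2, the factors of nascent mesoderm, and the apelin receptor gene Aplnr had no count in any of the 80 cells. Dll3, a Delta-like gene of the Notch pathway, stood at 133 CPM in the high-sum cells and 83.1 CPM in the others, and had a count in 20 of 20 and 57 of 60 cells. Fgf8, a ligand made by streak cells, stood at 52.2 CPM in the high-sum cells and 70.9 CPM in the others, and the Wnt ligand gene Wnt3 at 18.1 and 12.9 CPM. Among 25 genes of the anterior streak, node and definitive endoderm, 4 were measured, the highest of them the Wnt antagonist gene Sfrp1 at 374 and 395 CPM, and Sox17 and Gata4, which mark endoderm, had no count in any cell. Beside the genes that chose the cells, Lefty2 alone of these lists was past the fold described next.

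Levels of the groups were taken from counts summed over cells. A gene is counted as past the fold where these levels differed at least 2-fold and still did so without the highest cell of the higher group. Of 9586 measured genes, 139 (1.5%) were higher in the high-sum cells by this rule and 296 (3.09%) were lower. The rule drops 1 of 20 cells on one side and 1 of 60 on the other, so the counts in the 2 directions are not comparable. Without cell 70, 132 of 9536 genes were higher (1.4%) and 313 lower (3.28%), of which 107 and 248 were among those counted with it. Of 16 gene lists, 10 had 0 measured members past the fold in either direction. With at most 18 measured members in a list, a count of 0 is near the share of all measured genes and says little about a list.

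**Figure D2:**
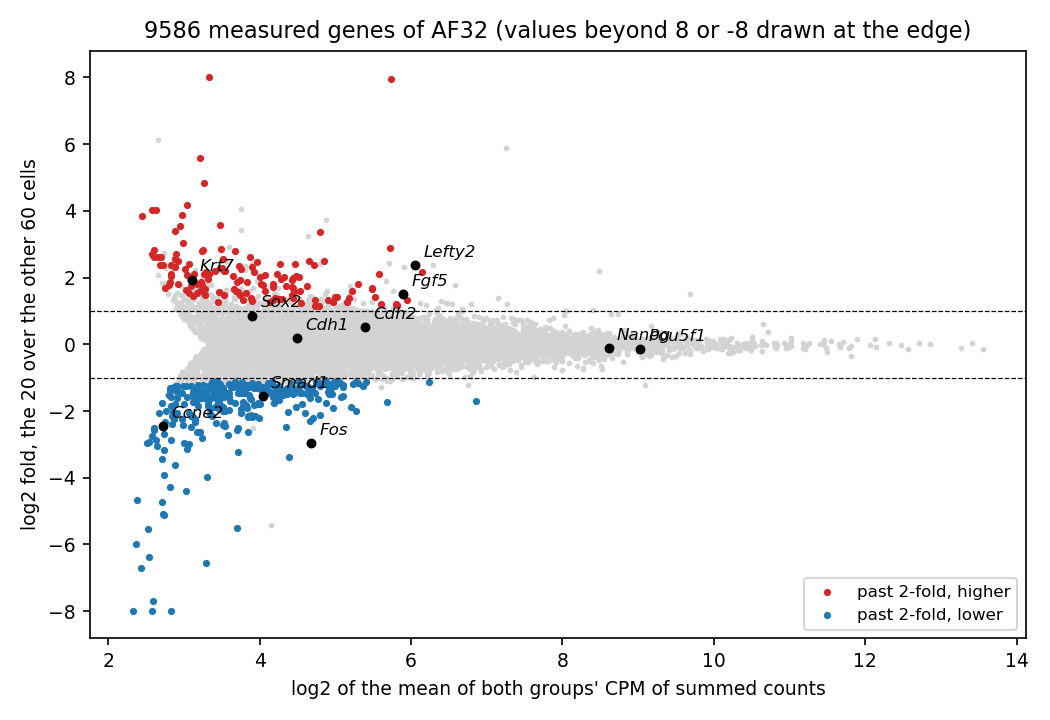
Log2 fold of the high-sum cells over the other 60 cells against the log2 of the mean of both levels in CPM, for 9586 measured genes without the 5 that chose the cells. Red points (139) were at least 2-fold higher and blue points (296) at least 2-fold lower, also without the highest cell, and named genes are black. Pou5f1 and Nanog lie close to 0, while Lefty2 and Fgf5 lie above the upper dashed line.

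Lefty2, an inhibitor and target of Nodal signalling that is expressed in the streak and nascent mesoderm, was the only measured member of its list past the fold. Its level was 112 CPM in the high-sum cells and 21.6 CPM in the others, a 5.17-fold difference (95% interval 5.00–5.34, for counting error only). In the high-sum cells Lefty2 reached 1061 CPM in cell 66, 663 CPM in cell 47, 259 CPM in cell 77, 43.7 CPM in cell 73 and 20.6 CPM in cell 24. The other 15 high-sum cells lay under 1 CPM, cell 70 among them with no count. Of the 60 other cells, 7 had at least 10 CPM, and the highest had 522 CPM. The groups therefore overlapped, and the fold without the highest cell was 2.5. Of these 5 cells, cells 66 and 47 were led by Foxa2 and the other 3 by Eomes.

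Fgf5, an FGF ligand of the epiblast, differed in more cells. It ranged from 0 to 305 CPM with a median of 72.1 CPM in the high-sum cells, and from 0 to 258 CPM with a median of 0.535 CPM in the other 60. At 10 CPM or more it was found in 13 of 20 against 18 of 60 cells. The levels of the summed counts were 87.8 and 31.1 CPM (2.8-fold, interval 2.7–2.9), and leaving out single high-sum cells gave 2.4 to 3.0. Both ranges began at 0 and overlapped over nearly their whole length. In the 10 cells led by Foxa2 the median of Fgf5 was 90.1 CPM, in the 7 led by Eomes 5.98 CPM, and in the 2 led by Gsc it stood at 147 and 54.8 CPM.

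Of 15 measured genes of FGF signalling, Fgf5 was higher past the fold and Fos, an immediate early factor, was lower, and the median log2 fold was 0.02, against 0.01 over all measured genes. Fos stood at 5.78 and 45.4 CPM, a 7.86-fold difference. Of the 60 other cells, 3 had 545, 784 and 1077 CPM of Fos and 35 had none, and of the 20 high-sum cells 15 had none and the highest had 71.0 CPM. Fos was thus carried by few cells on both sides. Fgfr2, a receptor gene short of the share of cells for measured genes, stood at 0.0807 and 12.3 CPM, and reached 10 CPM in 0 of 20 and 6 of 60 cells. Fgfr3, a receptor gene below the level for measured genes, went the other way, at 9.0 and 1.7 CPM. It reached 10 CPM in 2 of 20 and 3 of 60 cells. Egr1, another immediate early factor, stood at 131 and 173 CPM, and the ERK phosphatase gene Dusp6 at 171 and 244 CPM. The ETS factor gene Etv5 was higher, at 141 and 120 CPM. Of the 15 measured members, 8 had a fold above 1 and 7 a fold under 1.

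Nodal and activin pathway genes were measured for 17 members, of which Lefty2 alone was past the fold (median log2 fold 0.01). The inhibitor gene Lefty1 had 3141 CPM in the high-sum cells and 4036 CPM in the others, the ligand gene Nodal 83.7 and 98.3 CPM, the co-receptor gene Tdgf1 1327 and 1420 CPM, and the transcription factor gene Foxh1 133 and 145 CPM. Of canonical Wnt genes, 12 were measured and 0 were past the fold in either direction (median log2 fold −0.17). Ctnnb1, which encodes β-catenin, stood at 454 and 408 CPM. The list also held the effectors Lef1, at 12.8 and 14.7 CPM, and Tcf7, at 35.6 and 44.3 CPM, and the feedback inhibitor Nkd1, at 35.6 and 49.9 CPM. These last 3 had lower values in the high-sum cells, by less than 2-fold.

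Smad1, which carries BMP signals to the nucleus, was the only one of 10 measured BMP genes past the fold. Its level was 8.33 CPM in the high-sum cells and 24.6 CPM in the others, 3.0-fold lower. It was found at 10 CPM or more in 6 of 20 against 30 of 60 cells, with a highest value of 59.8 and 112 CPM. Id1, a target of BMP signalling, stood at 28.8 and 25.6 CPM. Id3, another, stood at 72.1 and 50.2 CPM, with 520 CPM in cell 70, and was 0.79 times the level of the other 60 cells once cell 70 was left out.

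Pluripotency factors differed little between the groups. Of 15 measured members, 0 were past the fold, which is near the shares of all measured genes (1.5% higher and 3.09% lower). The median log2 fold was −0.10, and −0.01 without cell 70. Pou5f1 (Oct4) stood at 495 CPM in the high-sum cells and 545 CPM in the others, Nanog at 374 and 408 CPM, and the DNA methyltransferase gene Dnmt3b at 631 and 611 CPM. Sox2, low in this line, stood at 19.3 and 10.6 CPM (1.8-fold). Apart from cell 70, the high-sum cells ran from 144 to 896 CPM of Pou5f1 and from 26.1 to 965 CPM of Nanog. Median Pou5f1 was 588 CPM in the cells led by Foxa2 and 455 CPM in those led by Eomes, with ranges that overlapped (208 to 896 and 144 to 858 CPM).

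Genes of epithelial and mesenchymal character were measured for 17 members, with 0 past the fold, though 14 of them had a fold above 1 and the median log2 fold was 0.50. E-cadherin (Cdh1), which streak cells lose in the embryo, stood at 24.1 and 21.2 CPM, and N-cadherin (Cdh2), which they gain, at 49.4 and 34.8 CPM. Cdh1 reached 10 CPM in 5 of 20 and 11 of 60 cells. Without its highest cell, at 255 CPM, Cdh1 was 0.60 times the level of the other 60 cells. The keratin gene Krt8 stood at 125 and 53.4 CPM, and was found at 10 CPM or more in 16 of 20 and 31 of 60 cells. The mesenchymal filament gene Vim stood at 1948 and 1269 CPM, or 1.04-fold without the highest cell, which had 11942 CPM. Higher and lower members of this list thus included both epithelial and mesenchymal genes.

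Cell cycle genes were mostly lower in the high-sum cells by less than 2-fold. Of 18 measured G2 and M phase genes 0 were past the fold, while 17 had a fold under 1 and the median log2 fold was −0.39, or −0.29 without cell 70. Top2a, the topoisomerase of mitotic chromosomes, stood at 545 and 743 CPM, and Cdk1, the mitotic kinase, at 285 and 446 CPM. With 10 high-sum cells this median was −1.20, and with 30 it was −0.01, so that it depended on the number of cells. Of 17 measured S phase genes 1 was past the fold, the cyclin gene Ccne2 at 2.04 and 11.2 CPM, found at 10 CPM or more in 2 of 20 and 14 of 60 cells.

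Marker lists of other cell types gave few counts. Of primordial germ cell markers and Hox genes, 0 reached the level for measured genes. Among them, Kit stood at 7.08 and 4.21 CPM. Of 10 trophoblast markers, 1 was measured, the simple-epithelium keratin gene Krt7, which stood at 13.6 and 3.56 CPM (3.83-fold, and 2.9-fold without its highest cell). It was found at 10 CPM or more in 6 of 20 and 7 of 60 cells, with highest values of 71.0 and 55.2 CPM. Elf5, which defines trophoblast, was at 0 in all 80 cells, as was the extraembryonic endoderm factor Sox7. The summed trophoblast list reached 77.3 CPM at most in any AF32 cell other than cell 70, which had none of it. Of 4 measured extraembryonic endoderm markers 0 were past the fold, with Sparc, a matrix gene also made by epiblast cells, at 730 and 646 CPM. Of 4 measured neural and surface ectoderm genes 0 were past the fold, with the intermediate filament gene Nes at 147 and 81.3 CPM, and of fibroblast markers the 1 measured, Pdgfrb, stood at 11.9 and 8.65 CPM.

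Several genes had a high fold that came from 1 cell. Trh, which encodes thyrotropin-releasing hormone and is listed with anterior streak and endoderm genes, stood at 300 CPM in the high-sum cells and 5.04 CPM in the others, and cell 66 alone had 5231 CPM. Without that cell Trh was 0.645 times the level of the other 60 cells. Krt19, a keratin gene of simple epithelia, had 1100 CPM in cell 24 and 774 CPM in the highest of the 60 other cells.

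The largest folds among protein-coding genes also rested on few cells each. The 15 largest in the higher direction were those of Pkd2l1, Srrm4, Rerg, Epha1, Klhl18, Tspan11, Zcchc2, Aire, Irgm1, Gbp2, Cdh12, Dpysl3, Cyb561d1, Mfng and Cdr2. Pkd2l1, a channel gene of the polycystin family, stood at 106 and 0.431 CPM, and cell 65 had 1766 CPM of it. Without that cell its fold was 4.58 in place of 247. Rerg, a Ras-like GTPase gene, stood at 18.7 and 0.647 CPM and reached 10 CPM in 6 of 20 and 1 of 60 cells. Mfng, which encodes the Notch-modifying enzyme manic fringe, stood at 92.9 and 12.6 CPM, with 1165 CPM in its highest cell and a fold of 2.02 without it. At most 6 of the 20 cells reached 10 CPM of any of these 15 genes.

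The 15 largest in the lower direction were Slc2a6, Slx4, Fbxo27, Kyat1, Slc4a2, Magel2, Zfp236, Uvssa, Snx32, Zfp59, Wdr7, Lrrc75a, Cryl1, Cox15 and Fam122b. Slc2a6, a sugar transporter gene, reached 10 CPM in 0 of 20 and 14 of 60 cells, and Magel2, an imprinted gene of the MAGE family, in 0 of 20 and 13 of 60 cells. Cox15, an enzyme gene of heme A synthesis, reached it in 1 of 20 and 14 of 60 cells. All 15 had a level of at most 25.5 CPM in the 60 other cells, of which between 10 and 18 reached 10 CPM of each gene.

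Cell 70, the only cell with a high level of T, stood apart from the other 19. It had 13787 counts of T, from the gene at chr17:8434423-8442496. The pluripotency factor Pou5f1 was at 1.9 CPM, the lowest of the 80 cells, whose median over the other 79 was 526 CPM. Nanog was at 1.2 CPM, with 1 cell lower, and Sox2 had no count. The 24 listed pluripotency genes summed to 740 CPM in cell 70 and to between 975 and 6700 CPM in the other 79 cells. It also had the lowest sum of Nodal and activin pathway genes, at 627 CPM. Its depth of 5819714 counts and its 10238 detected genes lay within the range of the other cells.

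Shh, the ligand secreted by node and notochord, stood at 848 CPM in cell 70 and at no more than 0.595 CPM in any other AF32 cell. Foxa2, which is expressed in the same axial tissues, was at 25.4 CPM there. Lmx1a, a LIM-homeobox factor gene, stood at 319 CPM, the Wnt inhibitor gene Dkk1 at 76.5 CPM, the T-box factor gene Tbx3 at 74.9 CPM, and the Wnt ligand gene Wnt8b at 111 CPM. Each of these 4 was at most 11.2 CPM in the other 79 cells. Eomes was at 0.172 CPM and Mixl1 and Gsc had no count. Of the 23 genes of the anterior streak, node and endoderm list in the table, cell 70 had a count of 8. Lhx1, Nog, Foxj1, Foxa1 and Sox17 of this list had no count in it, and the BMP antagonist gene Chrd stood at 20.6 CPM, with up to 238 CPM in other cells. It is 1 cell, and no cell of the other 3 lines reached 10 CPM of Shh.

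Further genes stood higher in cell 70 than in every other AF32 cell. The immunoproteasome subunit gene Psmb8 had 745 CPM, against at most 101 CPM in other AF32 cells, and Psmb10, another subunit gene, had 1433 CPM, against at most 268 CPM. The viral RNA sensor gene Ifih1 and the GTPase gene Irgm1 each had 206 CPM, against at most 9.26 and 69.2 CPM. The transglutaminase gene Tgm2 stood at 1054 CPM and at no more than 279 CPM elsewhere in AF32. B2m, the light chain gene of MHC class I, stood at 77.3 CPM, within the range of the other cells, whose highest had 315 CPM. Cell 70 had 456 genes at 50 CPM or more and above every other AF32 cell. The same count ran from 21 to 781 in the other 79 cells, and 3 of them had more than cell 70. The genes named for cell 70, and those of the next paragraph, were chosen after their values were seen.

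Low Pou5f1 was not particular to cell 70. A cell of the other 60, cell 74, had 2.6 CPM of Pou5f1, 0.590 CPM of Nanog and no count of Sox2 or of any of the 5 streak genes. The plots by gene show both cells below the main cloud of Pou5f1, cell 70 alone at the top of T and Shh, and the overlap of the groups in Lefty2 and Fgf5.

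**Figure D3:**
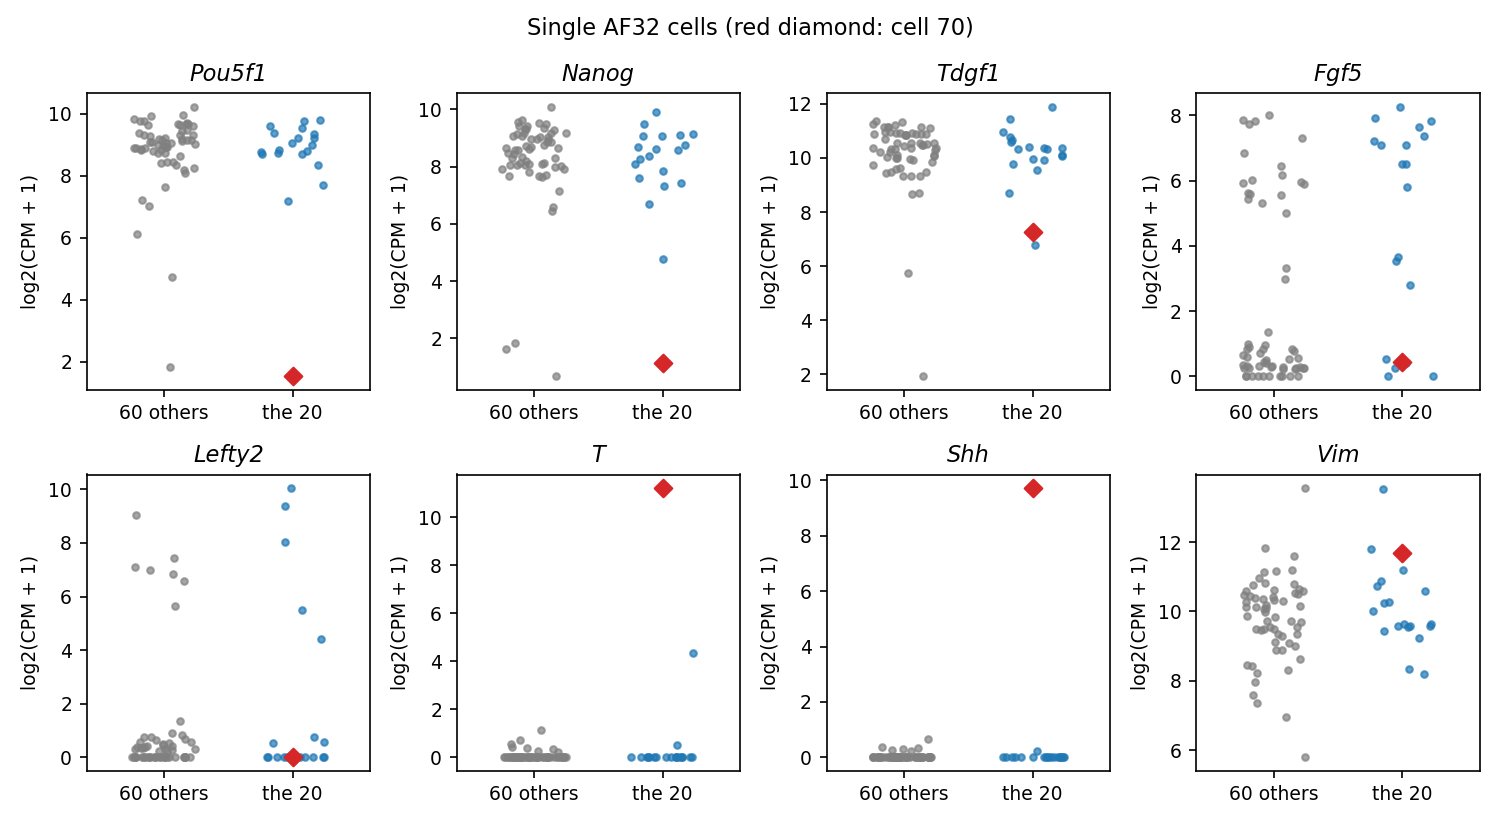
Values of 8 genes in single AF32 cells as log2(CPM + 1), for the other 60 cells (grey) and the high-sum cells (blue), with cell 70 as a red diamond. Cell 70 is lowest for Pou5f1, at 1.9 CPM, and highest for T and Shh, and the remaining 19 cells lie within the spread of the grey points for Pou5f1 and Nanog.

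The same sum was then taken in the other lines, which the choice of the 20 cells did not use. At or above 14.4 CPM stood 20 of 80 AF32 cells (25%, which the rule fixes), 13 of 66 AFX6 cells (19.7%, exact 95% interval 10.9–31.3%), 71 of 90 5ar1 cells (78.9%, 69.0–86.8%) and 59 of 90 5ar2 cells (65.6%, 54.8–75.3%). Outside AF32, Eomes was the gene of the 5 most often at 10 CPM or more. It reached that level in 11 AFX6, 71 5ar1 and 59 5ar2 cells, against 8 AF32 cells. As 10 CPM lies below 14.4 CPM, these need not be the same cells as those counted by the sum in AFX6 and 5ar2. In 5ar1 the same 71 cells were counted both ways, as no sum there lay between 10 and 14.4 CPM. The 5ar lines thus reached the sum more often than AF32, and also reached 10 CPM of Eomes more often. With 1 culture per line, line and medium cannot be told apart, and the intervals cover counting error only.

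Foxa2 had another order. It reached 10 CPM in 11 of 80 AF32 cells (13.8%, 7.07–23.3%), 0 of 66 AFX6 cells (a count of 0, read as up to 3 cells, allows a share of up to 4.55%, and the exact interval reaches 5.44%), 0 of 90 5ar1 cells (up to 3.33%, and 4.02% by the exact interval) and 1 of 90 5ar2 cells (131 CPM). Gsc reached it in 3 AF32, 1 AFX6, 0 5ar1 and 5 5ar2 cells, and T in 2 AF32 and 1 AFX6 cell, at 18.8 CPM in the latter. Pairs of the 5 genes were found in 5 AF32 cells, 5 5ar2 cells and in 0 cells of AFX6 and 5ar1. AF32 was thus the line with most Foxa2 cells, and in 10 of them Foxa2 made the largest contribution to the sum.

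**Figure D4:**
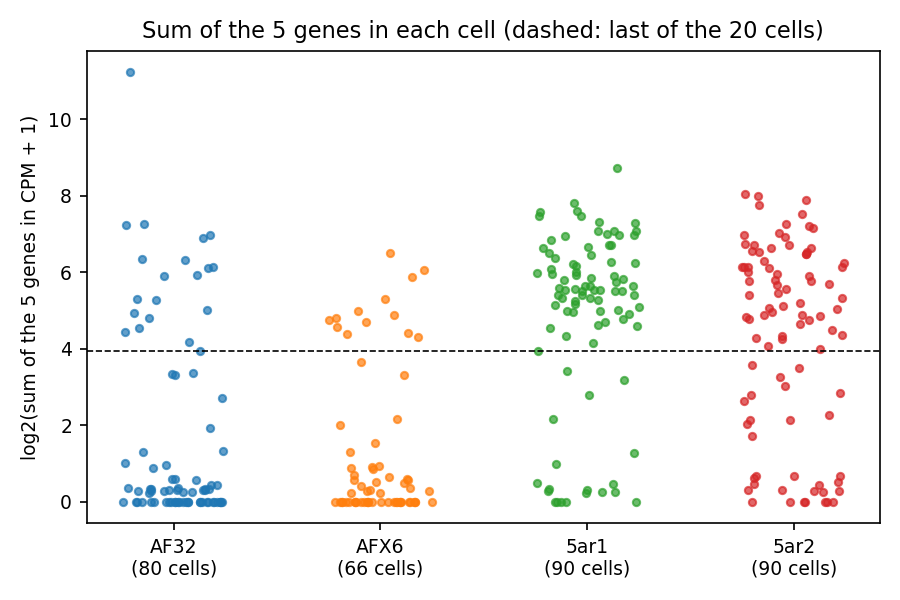
Sum of the 5 genes in each cell as log2(CPM + 1), by line, with the sum of the last high-sum AF32 cell (14.4 CPM) as a dashed line. Above the line lie 20 AF32, 13 AFX6, 71 5ar1 and 59 5ar2 cells, and the single point far above the rest of AF32 is cell 70.

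The genes past the fold in AF32 were followed in the other lines by setting the 25% of cells with the highest sum against the rest. In AFX6, 16 cells against 50, 184 of 9269 genes were higher (1.99%) and 309 lower (3.33%). In 5ar1, 22 cells against 68, 54 of 9206 were higher (0.587%) and 150 lower (1.6%), and in 5ar2, with the same numbers of cells, 41 of 8971 (0.457%) and 165 (1.8%). Of the genes higher in AF32, 70 were measured in AFX6, where 51.4% had a fold above 1, against 50.1% of all genes. The shares were 47.7% against 53.5% in 5ar1 and 50.8% against 49.6% in 5ar2. Of the genes lower in AF32, 50.7% in AFX6, 47.1% in 5ar1 and 53.3% in 5ar2 had a fold under 1, against 49.9%, 46.5% and 50.4% of all genes. These divisions were not made at the AF32 level of 14.4 CPM. The lowest sum of the high group was 3.50 CPM in AFX6, 86.7 CPM in 5ar1 and 77.6 CPM in 5ar2. The other cells reached 82.3 CPM in 5ar1 and 74.2 CPM in 5ar2, so cells above 14.4 CPM stood on both sides there. The directions seen in AF32 stood near the background in all 3 lines under these unlike divisions. Whether they recur in a division like that of AF32 was not tested.

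Fgf5 had higher values in the cells with the highest sum of each line. It stood at 60.6 against 20.9 CPM in AFX6 (2.9-fold), 280 against 212 CPM in 5ar1 (1.3-fold) and 323 against 255 CPM in 5ar2 (1.3-fold). In AF32, however, the median of Fgf5 was 90.1 CPM in cells led by Foxa2 and 5.98 CPM in those led by Eomes, the most frequent gene of these lines. Smad1 was lower in the high-sum cells of AF32. In the other lines, divided at other sums, Smad1 was not lower, with folds of 1.3, 1.1 and 1.2. Ccne2, also lower in AF32, had folds of 1.7, 1.1 and 1.2. Fos, lower in AF32, was 2.5-fold higher in AFX6 and had no count in the high groups of 5ar1 and 5ar2. Lefty2 and Krt7 had under 3 CPM in both groups of these lines.

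The high-sum cells and the others had similar depth. Median counts were 4244680 and 4410900, and median detected genes 10264.5 and 10365.5, with ranges of 9479 to 10996 and 8955 to 11761. Expression over the genes of chromosome 8, relative to their mean over all kept cells and to the median autosome of the cell, was above 1.2 in 11 of 20 and 30 of 60 cells, over chromosome 11 in 16 of 20 and 50 of 60, and over chromosome 2, which carries Foxa2, in 7 of 20 and 22 of 60. Of the 10 cells led by Foxa2, 3 had a raised chromosome 2. Of the 16 AF32 cells below the depth threshold 0 reached 14.4 CPM, and the highest had 6.07 CPM.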

How the data were processed

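Per the labels and the methods of the study, the authors sorted single cells into 96-well plates, prepared Smart-seq2 libraries and aligned reads with STAR 2.7.3a to GRCm38.p6. The submitters' processing notes also name featureCounts 2.0.0, and the deposited raw counts are uniquely mapped reads per gene and cell. The authors also deposited a score normalized with sctransform, in whole numbers, which was used as an alternative here. No molecular identifiers were used, so reads are not independent molecules, and intervals cover counting error only.

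Cells with at least 3000000 counts were kept, as in the study, and levels are CPM of summed counts (Python 3.11.15, numpy 2.4.6, pandas 2.3.3). Kept AF32 cells had between 3022696 and 6283874 counts, at which 3 counts are at most 0.992 CPM. Intervals of folds are exact conditional 95% intervals, and those of shares are exact Clopper-Pearson (scipy 1.17.1). The script of the fold rule was tested on simulated data. Gene symbols and positions were from GENCODE M21, chromosome sums were taken over protein-coding genes that averaged 20 CPM or more, and plots used matplotlib 3.10.9.

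The members and the gene lists were chosen with earlier results of these data known. Genes named are list members past the fold, the 15 largest folds each way among protein-coding genes, the 5 streak genes, Pou5f1, Sox2, Nanog, Cdh1 and Cdh2, and the highest members of lists with none past it. Other genes in the text were added after their values were seen. Each line is 1 culture, so no test was run. Alternatives changed scaling (edgeR 4.0.16 TMM and DESeq2 1.42.0 size factors), values, filters, thresholds, depth, the score and the number of cells.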

Additional observations from a re-analysis of the deposited data

How the results depend on the processing

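The number of genes past the fold depended on the filter and on the number of cells. The counts of genes higher and lower were 18 and 12 with at least 50 CPM, 669 and 3543 with no filter, 42 and 106 at a threshold of 3, and 452 and 785 at a threshold of 1.5. Genes higher numbered 464 where the highest cell was kept, and 385 against the 20 cells with the lowest sum. Genes lower numbered 550 with at least 1 CPM, 915 with 10 cells and 165 with 30 cells. The share of calls that were higher, 32.0% in the report, was 60.0% at 50 CPM, 15.9% with no filter, 52.8% where the highest cell was kept, 56.5% against the 20 lowest cells, 18.2% with 10 cells and 42.3% with 30 cells. Scaling by TMM gave 141 and 293, DESeq2 size factors 143 and 289, thinning to 1000000 counts 123 and 237, and the normalized values of the authors 132 and 268. A sum of ranks kept 13 of the 20 cells and 43 of the 139 higher genes, and a sum without Eomes kept 14 cells and 39 genes. The median log2 fold of G2 and M phase genes was −1.20 with 10 cells, −0.0059 with 30 cells and −0.048 with a sum of ranks. The difference in median detected genes was −101 in the report and 135.5 with a sum of ranks. With a threshold of 4000000 counts, 55 AF32 cells remained, the last of the 20 had 0.498 CPM, and 20 AFX6 and 72 5ar2 cells reached it. The causes of these shifts were not tested beyond what each setting changes by construction. Leaving out single high-sum cells reversed the fold of no list gene past the fold. For genes higher in these cells the rule itself fixes this outcome. For genes lower in them, leaving out a cell of the lower group can change the fold little, so the outcome adds no support. No paired analysis was possible because the results come from no test, and the numbers that cells of different lines share only name cells. Depth limits a gene with no count in a kept cell to under 1 CPM for the sampling of reads only. Loss of transcripts before sequencing was not measured, so a count of 0 does not show that a gene was silent. In addition, 1 culture per line limits every comparison of lines.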
